A study of Oryza sativa Japonica Group with 4 samples.

Results

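WRKY71, WRKY24, WRKY51 and OsWRKY76 are genes of rice WRKY transcription factors, and their transcripts were followed in nitrogen-starved roots given glutamine for 30 min. The genes were taken by symbol or synonym from the array's annotation, which gave 5 probe sets for these 4 genes, out of 57258 probe sets that are not array controls and 17905 genes matched to at least 1 of them. WRKY71 had 2 probe sets and each of the other genes had 1. They had been chosen by their log2 differences between plus glutamine and minus N in earlier results of these same arrays, so those differences are given below as a description, with no test.

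Roots came from seedlings of rice (Oryza sativa, Japonica Group, variety TNG67), kept dark for the 3 days of germination and then raised for 2 weeks in hydroponics lacking nitrogen. At 17 days of age, the plus glutamine group (2 arrays) was moved to solution with 2.5 mM glutamine and the minus N group (2 arrays) to fresh solution without nitrogen, both for 30 min. Each sample was hybridised to 1 GeneChip Rice Genome Array, a single-colour array on which a probe set, a group of short probes for 1 transcript, gives 1 intensity. The labels call the samples biological repeats 1 and 2 of each group, and do not say whether they came from separate cultures, so any p-value below measures only the spread between these samples. All plants had been starved of nitrogen, and no nitrogen-sufficient roots were analysed here.

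WRKY factors are plant transcription factors named for a conserved stretch of amino acids in their DNA-binding domain, with which they bind the W box of target promoters. Many of them are switched on within minutes by microbial elicitors, wounding or salicylic and jasmonic acid, and some repress rather than activate their targets. In rice, WRKY71 takes part in the defence response to bacterial blight, and in the aleurone layer of the grain it acts with WRKY51 as a repressor of gibberellin signalling. WRKY24 represses gibberellin and abscisic acid signalling in aleurone cells. OsWRKY76 is a transcriptional repressor that lowers resistance to blast fungus and raises cold tolerance when overexpressed. WRKY71 and OsWRKY76 belong to the same subgroup of the family (IIa), as does WRKY62, whose product binds the intracellular part of the immune receptor XA21.

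Arrays of the same repeat number were more alike than arrays of the same treatment. The correlation of log2 intensities over probe sets was 0.995 between plus glutamine 1 and minus N 1, and 0.99 between plus glutamine 2 and minus N 2, against 0.983 within the plus glutamine group and 0.975 within the minus N group. The difference between treatments is therefore also given within each number. The median intensity was 19.7 and 22.2 in the plus glutamine arrays and 19.9 and 21.7 in the minus N arrays. Of the root markers, Lsi1, a silicon influx channel of roots, lay between 12.83 and 13.14 on the log2 scale in all 4 arrays. Transcripts of green tissue were present as well, with the chlorophyll-binding protein gene CAB2R between 13.07 and 13.36 at its brighter probe set and between 12.03 and 12.83 at the other. RBCS ran from 8.23 in minus N 1 to 10.01 in minus N 2 at its brightest probe set, whereas RBCS1 was at the low end of the scale, from 2.00 to 2.10. In bulk roots, a change in the number of cells that express a gene and a change in RNA per cell cannot be told apart.

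WRKY71 (gene LOC4328512), at its brighter probe set, had the smallest spread between repeats of the 3 genes that were at least 2-fold apart. This probe set had intensities of 902.0 and 1139.2 in the plus glutamine arrays, against 528.5 and 456.0 in the minus N arrays. The groups did not overlap, and the lower plus glutamine array stood 0.77 log2 units above the higher minus N array. The log2 intensity averaged 9.98 ± 0.24 with glutamine and 8.94 ± 0.15 in minus N (SD, n = 2 each), a difference of 1.05 (SE 0.24), or 2.07-fold. The difference was 0.77 within number 1 and 1.32 within number 2.

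A dimmer probe set of WRKY71 had intensities of 162.7 and 223.5 with glutamine, against 92.2 and 28.8 in minus N. Here too the groups did not overlap, but minus N 2 stood far below minus N 1. The log2 difference was 1.89 (SE 0.57) over both numbers, 0.82 within number 1 and 2.96 within number 2. Omitting minus N replicate 2 brought it to 1.05. Within number 1 the 2 probe sets of this gene thus gave close to the same difference, and within number 2 they differed by more than 1 log2 unit. The intensity of 28.8 is little above the median of that array, 21.7, and no detection calls were used, so how far it lies above background is unknown.

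WRKY24 (gene LOC4327518) had intensities of 299.6 and 488.9 with glutamine, against 194.1 and 119.9 in minus N. The groups did not overlap, and in both groups the array numbered 2 was the more extreme. The log2 intensity averaged 8.58 ± 0.50 in plus glutamine roots and 7.25 ± 0.49 in minus N roots (SD, n = 2 each), a difference of 1.33 (SE 0.37), or 2.51-fold. Within number 1 the fold was 1.54, and within number 2 it was 4.08.

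WRKY51 had intensities of 240.0 and 228.6 with glutamine, against 183.2 and 140.3 in minus N. Its plus glutamine arrays were nearly equal, and both lay above the minus N arrays. The log2 intensity averaged 7.87 ± 0.05 in plus glutamine roots and 7.33 ± 0.27 in minus N roots (SD, n = 2 each), a difference of 0.55 (SE 0.24), or 1.46-fold. It was the gene of the 4 with the lowest fold over both numbers. Within number 1 its fold was 1.31, above the 1.23 of OsWRKY76, and within number 2 it was 1.63. Omitting minus N replicate 2 gave a log2 difference of 0.36.

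OsWRKY76 (gene LOC4347069) had intensities of 386.3 and 169.6 with glutamine, against 314.8 and 20.4 in minus N. Its groups overlapped, since plus glutamine 2 lay below minus N 1, and a single array, minus N 2, was far below the other 3. The log2 intensity averaged 8.0 ± 0.84 in plus glutamine roots and 6.32 ± 2.79 in minus N roots (SD, n = 2 each), so the difference of 1.68 (SE 1.28) was smaller than the spread between the minus N repeats. Its SE comes from limma's fit, which draws each spread towards that of all probe sets, and is smaller than the gene's own SD within groups, 2.06. Within number 1 the plus glutamine array was 1.23-fold higher, and within number 2 it was 8.31-fold higher. Omitting minus N replicate 2 gave a log2 difference of -0.30, and omitting minus N replicate 1 gave 3.65.

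**Figure D1:**
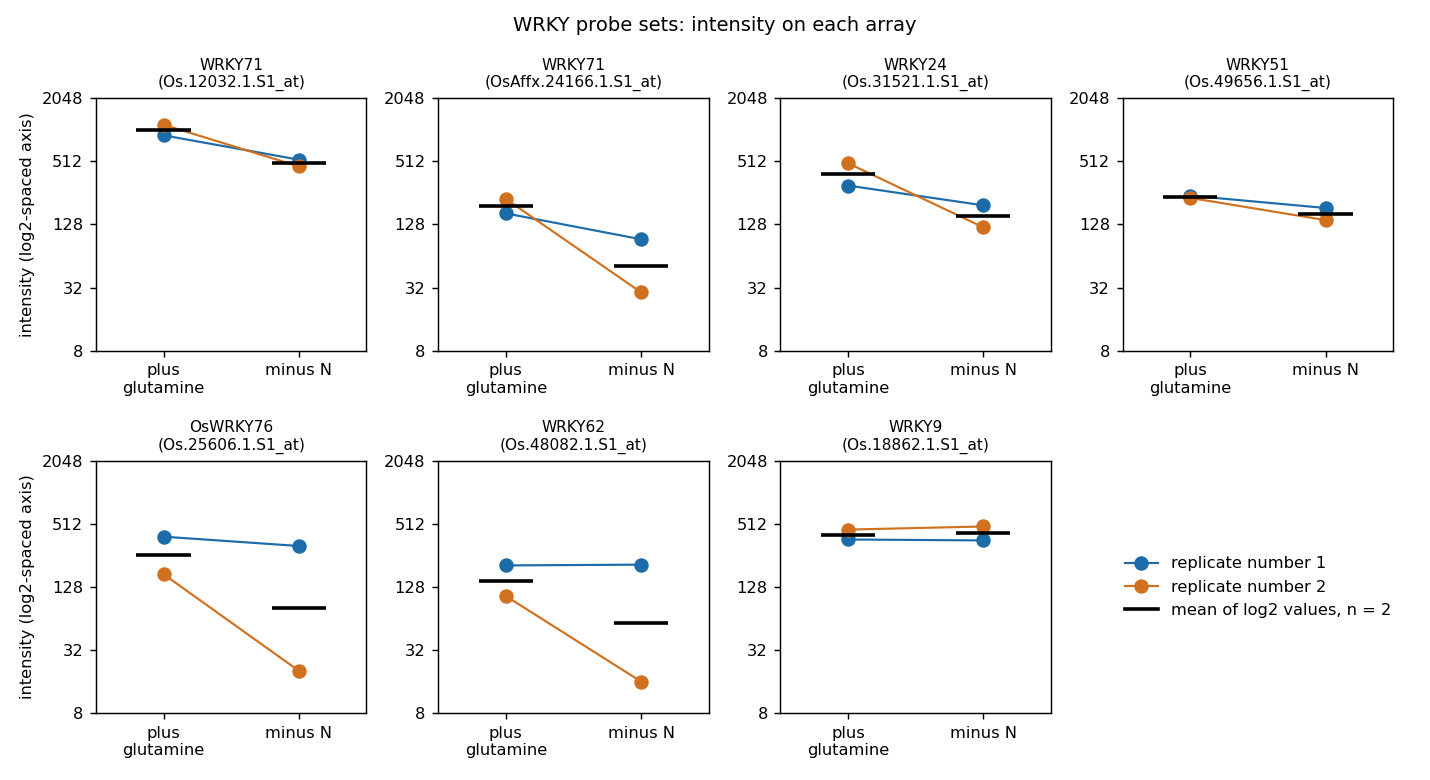
Intensity of each WRKY probe set on each array (vertical axis, log2-spaced), with plus glutamine left and minus N right. Lines join arrays with the same repeat number, and black bars mark the mean of the log2 values (n = 2). The groups of WRKY71, WRKY24 and WRKY51 do not overlap, and OsWRKY76 and WRKY62 have 1 low point, minus N 2, at 20.4 and 16.1.

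Of the 5 probe sets, 4 were higher with glutamine without overlap of the groups, against 8.36% of all probe sets, and 0 were lower, against 8.22%. With a fold of at least 2 as well, 3 of the 5 were higher, against 0.393% of all probe sets, and 0 were lower, against 0.0332%. At least 2-fold higher with or without overlap were 4 of the 5, against 0.48%. The rule chose the genes on this contrast, so these shares are a background and not evidence about the genes. None of the 5 was at least 2-fold higher within number 1, a level that 0.225% of all probe sets reached, and 4 were within number 2, where 1.13% of all probe sets were. All 5 were higher with glutamine within both numbers (21.9% of all probe sets). Over the whole table, limma's moderated test with Benjamini-Hochberg adjustment called 0 of 57258 probe sets higher (0.0%) and 0 lower, with 505 (0.882%) at an unadjusted p under 0.05 in either direction. The median log2 difference of all probe sets was -0.01, with -0.01 within number 1 and 0.00 within number 2.

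**Figure D2:**
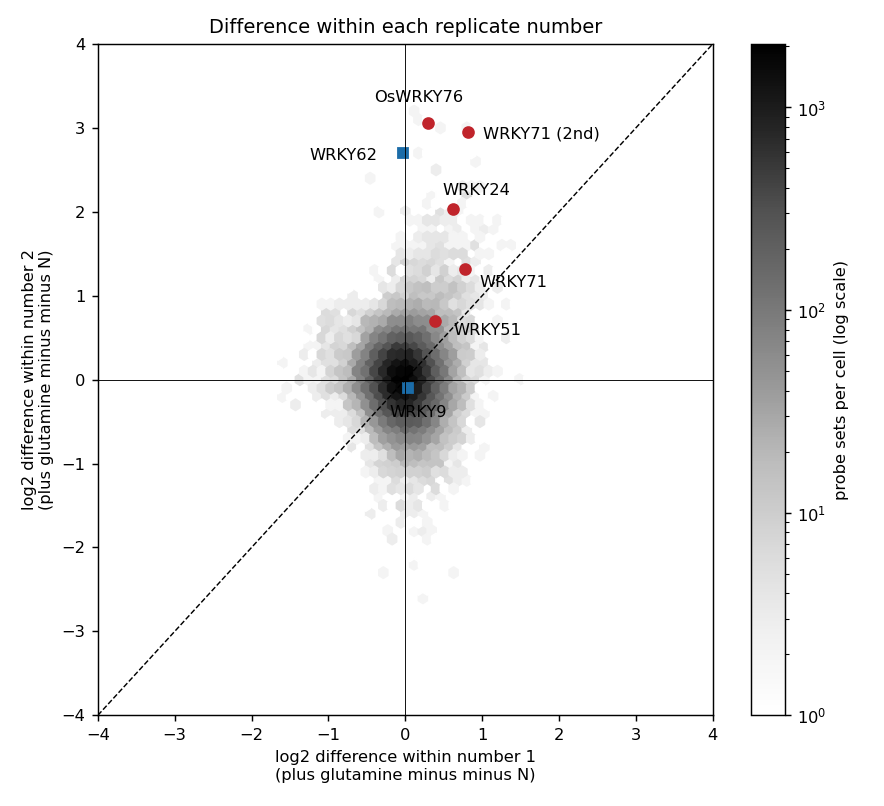
Log2 difference between plus glutamine and minus N within number 1 (horizontal) and within number 2 (vertical) for all 57258 probe sets (grey, darker where more probe sets fall), with red circles for WRKY71, WRKY24, WRKY51 and OsWRKY76 and blue squares for the other WRKY genes. "WRKY71 (2nd)" is the dimmer probe set of WRKY71. The dashed line marks equal differences, and all red points lie above it, from 0.39 and 0.70 for WRKY51 to 0.30 and 3.06 for OsWRKY76.

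The difference was larger within number 2 than within number 1 for all 5 probe sets. How many of all probe sets share that direction was not counted. A gap between the numbers at least as large, in either direction, was found in 36.8% of all probe sets for WRKY51. The share was 14.5% for the brighter WRKY71 probe set, 0.964% for WRKY24, 0.196% for the dimmer WRKY71 probe set and 0.0943% for OsWRKY76. The spread between repeats is therefore given for each group. Minus N 2 was the lowest of the 4 arrays for all 5 probe sets, as it was for 18.7% of all probe sets. Genes chosen for being higher with glutamine tend to be lowest in a minus N array, so this share is a background. Minus N 2 less minus N 1 gave -0.21 for the brighter WRKY71 probe set, -0.39 for WRKY51, -0.70 for WRKY24, -1.68 for the dimmer WRKY71 probe set and -3.95 for OsWRKY76, on the log2 scale. A difference between the minus N repeats as large as that of OsWRKY76 was found in 0.126% of all probe sets, and one as large as that of the dimmer WRKY71 probe set in 1.27%. For WRKY24 the share was 16.5%, and for WRKY51 and the brighter WRKY71 probe set it was 41.0% and 63.7%, which is common among probe sets.

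The plus glutamine repeats were closer to each other than the minus N repeats for WRKY51, OsWRKY76 and the dimmer WRKY71 probe set, about as far apart for WRKY24, and farther apart for the brighter WRKY71 probe set. Plus glutamine 2 stood 0.34 log2 units above plus glutamine 1 for the brighter WRKY71 probe set, 0.46 for the dimmer one and 0.71 for WRKY24. It stood 0.07 units lower for WRKY51 and 1.19 units lower for OsWRKY76. From low to high, the arrays ran minus N 2, minus N 1, plus glutamine 1, plus glutamine 2 for both WRKY71 probe sets and WRKY24. Of all probe sets, 2.43% had this order. It requires groups that do not overlap, with plus glutamine higher, as in 8.36% of all probe sets. The rule chose the genes on that contrast, so the 2.43% is a background and not evidence about the genes.

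Some other measures of the arrays also followed the numbers, and others did not. The 3′ over 5′ signal ratio of the Gapdh controls, which falls towards 1 in intact RNA, was 6.2 and 4.43 in the plus glutamine arrays and 6.94 and 4.32 in the minus N arrays. A separate set of Gapdh controls on the same arrays gave ratios of 0.99 and 0.97 in the plus glutamine arrays and 0.92 and 0.82 in the minus N arrays, and did not separate the numbers in the same way. The summed intensity of the 8 green shoot probe sets (4 genes) was 16636.9 and 18186.1 in the plus glutamine arrays and 13245.6 and 19191.5 in the minus N arrays, so it was highest in minus N 2, where WRKY71, WRKY24, WRKY51 and OsWRKY76 were lowest. Most of this sum came from CAB2R. The summed intensity of the 9 root marker probe sets was 8515.5 and 10925.3 with glutamine and 8388.3 and 10651.2 in minus N, most of it from Lsi1 (7279.0 in plus glutamine 1). The median log2 intensity of these root markers was 6.265 and 6.083 with glutamine and 6.04 and 5.966 in minus N, lower at number 2 in each group. For the 16 seed storage probe sets the sum was 478.5 and 529.0 with glutamine and 469.7 and 469.2 in minus N. The seed storage probe sets were mostly at the low end of the scale, with medians from 3.22 to 3.47 log2 units. Matching by name also took OsMADS3 (synonym RAG) into the seed list and OsGRF4 (synonym PT2) into the root list, so these lists do not hold marker genes alone. The part of RNA quality or tissue makeup in the WRKY values was not tested.

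**Figure D3:**
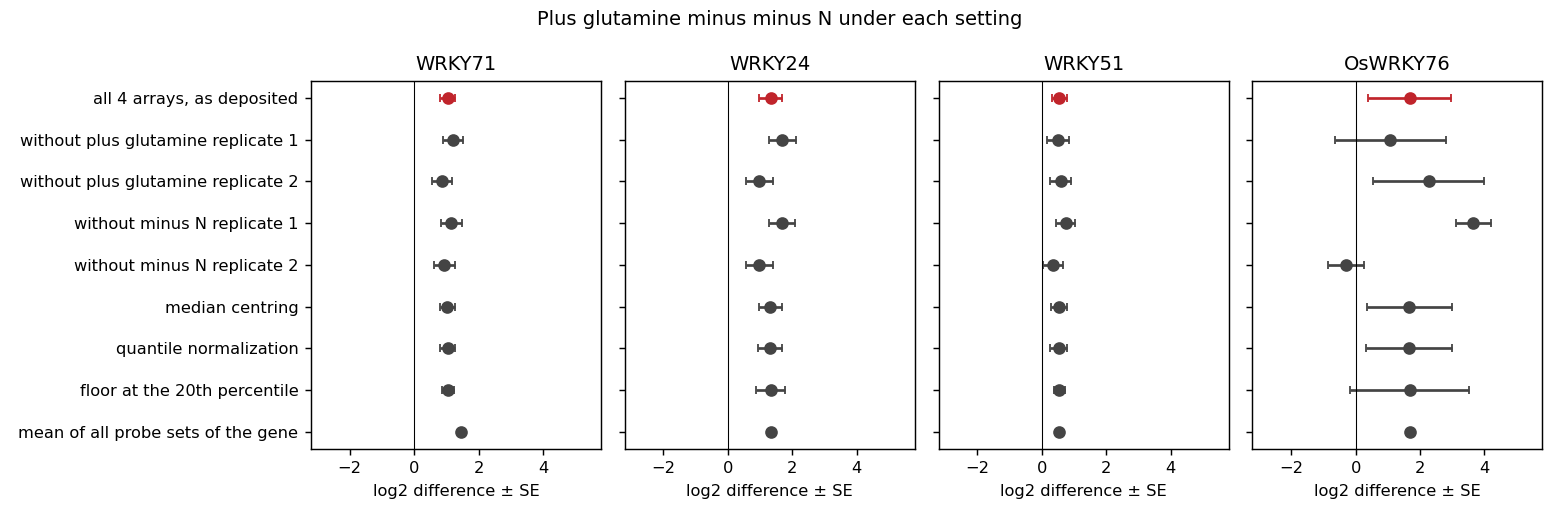
Log2 difference between plus glutamine and minus N (horizontal axis, bars are the SE of limma's fit) for each gene under each processing setting (rows), with the values from all 4 arrays as deposited in red. The mean over all probe sets of a gene has no SE. WRKY71 stays between 0.88 and 1.47, WRKY24 between 0.97 and 1.68 and WRKY51 between 0.36 and 0.74, whereas OsWRKY76 runs from -0.30 to 3.65.

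The annotation named 2 more WRKY genes, which the choice of the 4 genes left out. WRKY62 (gene LOC4347070) had intensities of 205.6 and 105.0 with glutamine, against 209.1 and 16.1 in minus N. Its groups overlapped, and as for OsWRKY76, minus N 2 was far below the other 3 arrays. The log2 difference was 1.34 (SE 1.19; limma adjusted p = 1.0), with -0.02 within number 1 and 2.71 within number 2. OsWRKY76 and WRKY62 are direct neighbours in the RefSeq gene table of assembly ASM3414082v1, with 0 other genes between them.

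WRKY9 (gene LOC4343736) had intensities of 363.1 and 451.1 with glutamine, against 355.8 and 483.0 in minus N. Here minus N 2 was the highest array rather than the lowest. Its log2 difference was -0.03 (SE 0.26; limma adjusted p = 1.0), with 0.03 within number 1 and -0.10 within number 2. The 7 probe sets of the 6 WRKY genes gave 1.33 as their median log2 difference. Without overlap, 4 were higher and 0 lower, next to 8.36% and 8.22% of all probe sets. But 5 of these 7 belong to genes chosen for being higher, among them all 4 without overlap. The groups of WRKY62 and WRKY9 overlapped. Other WRKY genes had no probe set matched to 1 gene with a WRKY name and were not analysed here. The annotation lists no gene for 34727 of the 57258 probe sets, and whether WRKY genes are among these is not known.

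To set the genes' patterns side by side, the 4 log2 values of each probe set were centred on their mean and the root mean square distance between profiles was taken over the 4 arrays. The profiles of OsWRKY76 and WRKY62 were the closest pair among the WRKY probe sets, at a distance of 0.204 log2 units. WRKY71 (brighter probe set) and WRKY24 lay 0.257 apart, and WRKY71 and WRKY51 lay 0.294 apart. The 2 probe sets of WRKY71 were farther from each other, at 0.669, than either of these pairs. OsWRKY76 lay between 0.997 and 1.46 from the probe sets of the other 3 genes and 1.85 from WRKY9. WRKY71 (brighter probe set), WRKY24 and WRKY51, in which treatment separated the arrays, lay within 0.489 of each other, closer than any of them lay to OsWRKY76, in which 1 array stood apart. They are no separate group by this measure, since WRKY51, whose values span a small range, lay closer to WRKY9 (0.434) than to WRKY24 (0.489).

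The same distance was used to find the named genes outside the WRKY family with the closest profiles, among 3183 probe sets of 2451 genes. Nearest to WRKY71 were 4CL5, a 4-coumarate-CoA ligase gene of phenylpropanoid synthesis (distance 0.077), LTR1, also named MYB4, a MYB transcription factor read by a probe set prone to cross-hybridisation (0.115), and AOS, the allene oxide synthase of jasmonate synthesis (0.12). Their log2 differences were 0.93, 0.86 and 0.95, next to 1.05 for WRKY71. Nearest to WRKY24 were JAZ5, of the family of jasmonate signalling repressors (0.167), CAD6, of the cinnamyl alcohol dehydrogenase family (0.2), and ERG1 (0.213). Within numbers 1 and 2, in that order, the log2 difference was 0.38 and 1.96 for JAZ5 and 0.43 and 1.94 for CAD6, next to 0.63 and 2.03 for WRKY24.

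Nearest to WRKY51 were ALD1, whose Arabidopsis namesake makes the defence signal pipecolic acid (0.04), the lipoxygenase gene LOX1.1 (0.043) and NH3, a homologue of the salicylate receptor gene NPR1 (0.047). Their log2 differences ran from 0.48 to 0.57, and the groups of all 3 did not overlap. Nearest to OsWRKY76 were RH2 (0.117), HAK17, of a family of potassium transporters (0.262), and ADC1, an arginine decarboxylase of polyamine synthesis (0.457). Within numbers 1 and 2, RH2 had log2 differences of 0.14 and 3.17 and HAK17 of 0.37 and 3.02, so minus N 2 was low for these genes too. The distances rest on 4 arrays, and a close profile among so many probe sets is a description of these arrays. Profiles with a small range lie closer to more genes, which applies to WRKY51.

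**Figure D4:**
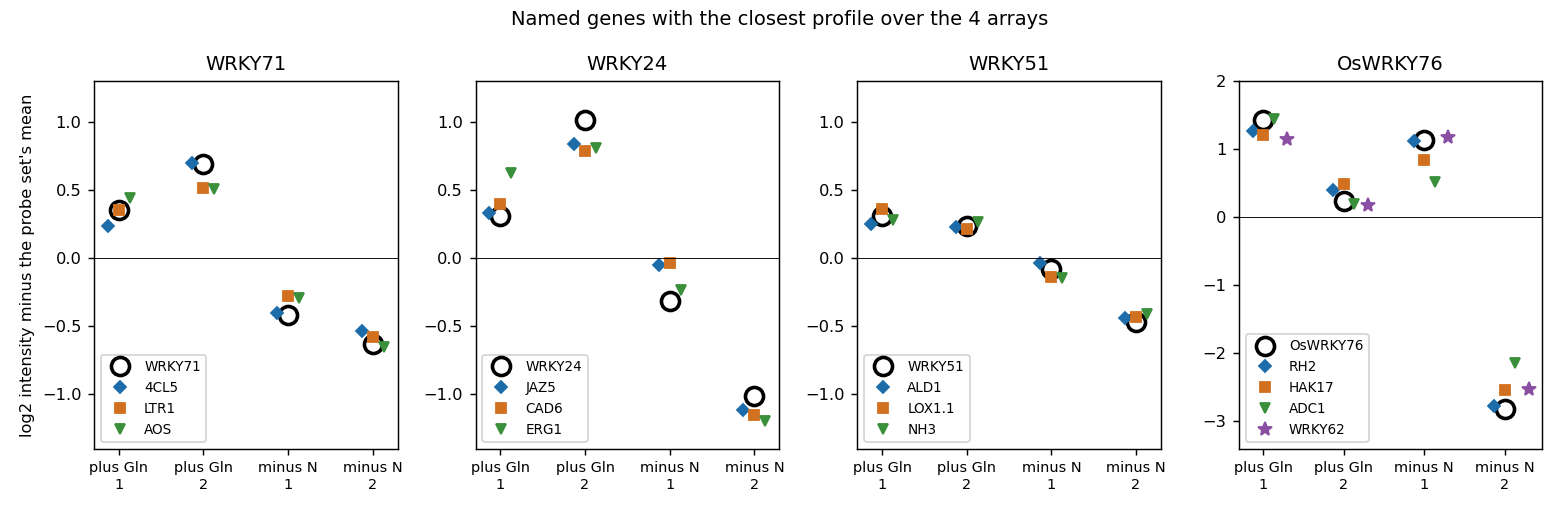
Log2 intensity minus the probe set's own mean (vertical axis) on each of the 4 arrays for WRKY71, WRKY24, WRKY51 and OsWRKY76 (black rings) and the 3 named genes closest to each (coloured marks), with WRKY62 as a star beside OsWRKY76. The scale of the OsWRKY76 panel is wider than that of the others. In the first 3 panels both plus glutamine arrays lie above 0 and both minus N arrays below it, and in the last, minus N 2 alone lies below 0.

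Genes that act before or after these factors in defence were followed as fixed lists of named genes, and limma called 0 probe sets in each list in either direction, with adjusted p = 1.0 throughout. Chitin receptors, co-receptors and mitogen-activated protein kinases, which relay the signal to WRKY factors, were followed in 26 probe sets of 23 genes. The list had a median log2 difference of -0.03, with 2 probe sets higher and 2 lower without overlap. That was 7.69% each way, near the 8.36% and 8.22% of all probe sets. The match by name also took in WNK1 (also named MEK1), so these values are not for those families alone. At an unadjusted p under 0.05 was 1 of the 26, where 0.882% of all probe sets were, namely MAPK5 (LOC4332475, also named MPK3), a kinase activated by pathogens and wounding. Its log2 difference was 0.66 (SE 0.25), split into 0.38 for number 1 and 0.95 for number 2. The kinase kinase gene MAPKK1 differed by 0.27 (SE 0.23). MPK8 differed by -0.27 (SE 0.22) at a probe set at the low end of the scale. Its intensities there were 5.6 and 5.6 with glutamine and 6.2 and 7.4 in minus N. At its bright probe set, which is prone to cross-hybridisation, MPK8 differed by -0.04 with overlapping groups.

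The salicylate branch, with NPR1 homologues, TGA factors and phenylalanine ammonia lyases (27 probe sets of 18 genes), had 7 probe sets higher without overlap, or 25.9%, and 1 lower, or 3.7%, where 8.36% and 8.22% of all probe sets were. Without minus N replicate 2 the share that was higher was 25.9% in the list and 33.5% over all probe sets. The 7 probe sets stand for 5 genes, and probe sets of 1 gene are not independent. The median log2 difference of the list was 0.01 (-0.02 for number 1 and 0.16 for number 2). Of its 27 probe sets, 0 had an unadjusted p under 0.05 in limma's fit, where 0.882% of all probe sets did. NH3 differed by 0.55 (SE 0.22) at 1 probe set and by 0.41 at its brightest, both without overlap, and by 0.10 and -0.21 at dimmer ones with overlap, and the phenylalanine ammonia lyase gene PAL06 by 0.41 (SE 0.23). The gene named PAL differed by -0.48 (SE 0.28) at 1 of its 5 probe sets and by 0.34 at another, both without overlap. It differed by 0.02, -0.04 and -0.06 at the 3 brightest, with overlap, and these 3 are prone to cross-hybridisation.

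Genes matched by name for the synthesis of diterpenoid phytoalexins, antimicrobial compounds of rice (23 probe sets of 20 genes), had 0 probe sets higher (0.0%) and 3 lower (13%) without overlap, next to 8.36% and 8.22% of all probe sets, at a median log2 difference of -0.05. The match also took in CPS1, ks1 and CYP701A19, which belong to gibberellin synthesis and whose groups overlapped, so these values are not for phytoalexin genes alone. CYP701A9, a cytochrome P450 gene, differed by -0.65 (SE 0.21), with -0.71 within number 1 and -0.59 within number 2, and was the single member at an unadjusted p under 0.05, as were 0.882% of all probe sets. CYP71Z7 and CYP99A2 differed by -0.27 (SE 0.21) and -0.14 (SE 0.21). The defence protein list held only PBZ1, of the PR10 family, whose log2 difference was 0.10 (SE 0.31) with overlapping groups.

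The gibberellin and abscisic acid list (99 probe sets of 80 genes) was drawn for the pathways in which WRKY71, WRKY51 and WRKY24 act in the aleurone. It took in every gene named PP2C with a number, and these make up most of its probe sets, so its shares mainly describe that family. The list had 11 probe sets higher and 4 lower without overlap, or 11.1% and 4.04%, next to 8.36% and 8.22% of all probe sets. The list's median was -0.004 on the log2 scale (0.06 for number 1 and -0.07 for number 2). Of its 99 probe sets, 1 had an unadjusted p under 0.05 in limma's fit, where 0.882% of all probe sets did. Those of the list that differed the most without overlap were protein phosphatase genes of the 2C type, some of which restrain abscisic acid signalling. OsPP2C32 differed by 0.83 (SE 0.24), OsPP2C59, whose intensities of 12.3 and 14.7 with glutamine and 7.2 and 11.2 in minus N are at the low end of the scale, by 0.58 (SE 0.29), and OsPP2C35, also named XB15, an attenuator of XA21 immune signalling, by 0.44 (SE 0.25).

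**Figure D5:**
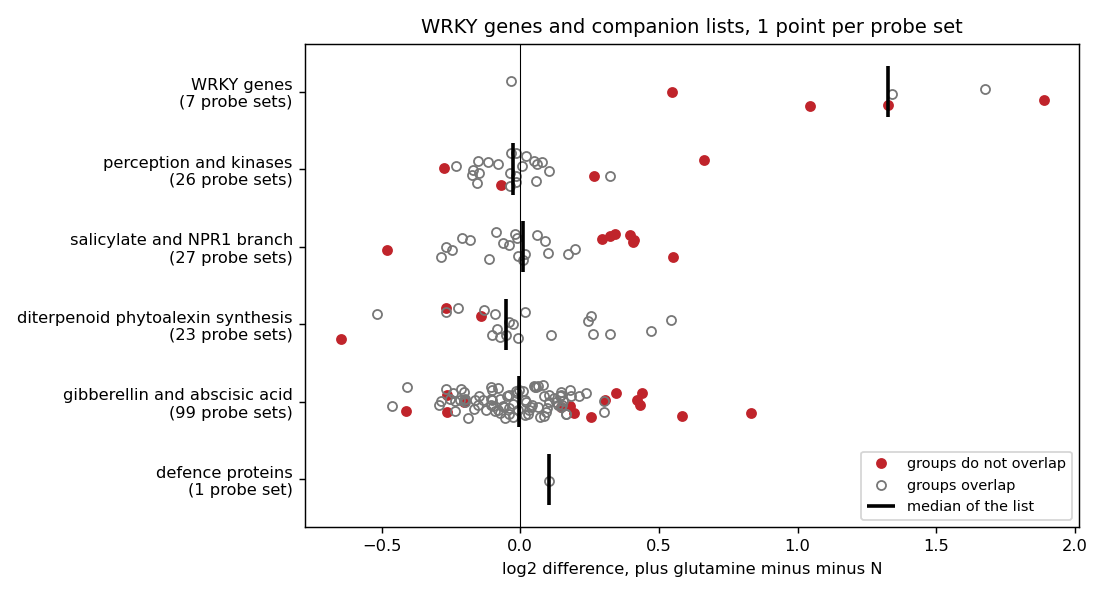
Log2 difference between plus glutamine and minus N (horizontal axis) of each probe set of the WRKY genes and the companion lists (rows). Filled red points have groups that do not overlap, open points have groups that do, and vertical bars mark the median of each list. The WRKY median is 1.33, in a list that holds genes chosen for higher values, and the medians of the other lists lie between -0.05 and 0.10.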

How the data were processed

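Root RNA of 4 samples was measured, 2 per group. Per the labels' protocols, biotinylated cRNA from 10 ug of total RNA was hybridised. The deposited table holds a linear intensity for each probe set and sample, from 2.9 to 21202.3. The submitters' processing notes list GCOS and RMA, with no version or role. Whether arrays were normalized to each other is not given in those notes or labels. Values were put on the log2 scale with no pseudocount.

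Annotation gave 1 gene for 22436 probe sets, and names came from RefSeq's table of assembly ASM3414082v1. The members and lists were chosen with earlier results of these data known. The genes named were all WRKY genes, per list up to 3 genes with the largest difference without overlap (or else the brightest), and the 3 nearest profiles per member. For WRKY71 the probe set with the highest mean stands for the gene, and listed genes are given at the probe set with the largest difference without overlap, which need not be the brightest.

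All 57258 non-control probe sets were fitted with limma 3.58.1 (R 4.3.3), with the group as the single term, two-sided and adjusted by Benjamini-Hochberg at 0.05. The script was tested on simulated data with less spread between arrays than the real ones and no deviation shared within numbers. That test checks the code and does not show what the fit could detect here. Each SE given is the moderated one of this fit, drawn towards the spread of all probe sets. With 2 arrays per group, their number limits the precision. Alternatives were the replicate number as a block, each array left out, a trended and robust prior, median centring, quantile normalization, a floor at the 20th percentile (7.1), leaving out the dimmer 50% of probe sets, probe sets prone to cross-hybridisation and the mean over a gene's probe sets. Figures used matplotlib 3.10.9.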

Additional observations from a re-analysis of the deposited data

How the results depend on the processing

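WRKY71, WRKY24 and WRKY51 stayed higher with glutamine under all alternatives run. Leaving out 1 array at a time gave log2 differences from 0.88 to 1.21 for WRKY71 (1.05 to 2.73 at its dimmer probe set, against 1.89), 0.97 to 1.68 for WRKY24, 0.36 to 0.74 for WRKY51 and -0.30 to 3.65 for OsWRKY76, which turned only without minus N replicate 2. The lone array left in a group was then assumed to vary like the other group's. The mean over both probe sets gave 1.47 for WRKY71. No probe set of these genes ends in _x_at or _s_at. With the replicate block, limma called 0 probe sets higher, and 2480 had an unadjusted p under 0.05, against 505 without it. Same-numbered arrays deviated together (r = 0.67 across probe sets), but the labels do not say what the numbers share. The replicate block with a trended and robust prior, an alternative chosen after seeing the data, called 24 probe sets higher and none of these 5.

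The other settings for limma, each array left out included, called 0. Leaving out 1 array, also chosen after seeing the data, loosens the test of overlap: those without overlap and with a fold of 2 or more then numbered 312 to 766 higher (225 with all arrays) and 57 to 421 lower (19). Without minus N replicate 2, 33.5% of all probe sets were higher without overlap and 22.8% lower, so larger counts in the lists are no rise by themselves: 13 higher (50%) and 5 lower for perception and kinases, 7 (25.9%) and 5 for the salicylate branch, 4 (17.4%) and 8 for diterpenoid synthesis, 40 (40.4%) and 9 for gibberellin and abscisic acid, and 0 and 0 for PBZ1. With the floor, or without dim probe sets, perception and kinases had 1 lower in place of 2, since the lower MPK8 probe set was dim, and without dim probe sets gibberellin and abscisic acid had 9 higher in place of 11. Signal over background is unknown, which limits the low values of OsWRKY76 and the dimmer WRKY71 probe set most.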
